A study of Mus musculus with 19 samples.

Results

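The 10 genes described here encode cytosolic heat shock proteins. They were taken by symbol from the deposited gene tables: Hspa1a, Hspa1b and Hspa8 of the Hsp70 family, Hsp90aa1 and Hsp90ab1 of the Hsp90 family, the Hsp110 proteins Hsph1 and Hspa4, the J-domain proteins Dnajb1 and Dnajb5, and the small heat shock protein Hspb1. They are 10 of the 20436 gene rows in each table, and all 10 passed the filter on low counts in both assays. They were chosen by name with their levels, RPF to RNA ratios and DHPG fold changes in these libraries already known, so the values that follow are a description and carry no p-value for these genes.

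The samples were hippocampal slices of wild-type male mice of P28-42. Slices received either vehicle (ACSF, the basal group) or 100 µM DHPG, an agonist of group I metabotropic glutamate receptors, for 5 min, and were then placed in cold cycloheximide at 100 µg/ml. The purpose was to find mRNAs whose level or translation responds within minutes to the stimulus that induces mGluR-dependent long-term depression. RNA-seq covered 4 basal and 5 DHPG libraries, and ribosome profiling, which sequences ribosome-protected fragments (RPFs), covered 5 basal and 5 DHPG libraries. Both groups share the wild-type genotype, the slicing, hours of recovery in warm ACSF before the treatment, and the cycloheximide. According to the study's methods, each replicate pooled slices of several mice with CA3 still present, and RNA and RPF of a replicate came from the same lysate. Replicate 5 has no basal RNA library, so it has no pair in RNA.

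Heat shock proteins bind unfolded or partly folded proteins and help them to fold, to avoid aggregation or to be degraded. Hsp70 proteins cycle between ATP- and ADP-bound states, with J-domain proteins delivering clients and stimulating ATP hydrolysis and Hsp110 proteins exchanging the nucleotide, while Hsp90 acts later on signalling proteins such as kinases and steroid receptors. Hspa8 and Hsp90ab1 are the constitutive forms and are abundant in neurons, whereas Hspa1a, Hspa1b, Dnajb1 and Hspb1 are classical targets of heat shock factor 1 (Hsf1), which binds repeats of GAA in alternating orientation in their promoters after proteotoxic stress.

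How far the reads of a member can be assigned to it differed widely between the 10 genes. Hspa1a (chr17:34969190-34972156, minus strand) and Hspa1b (chr17:34956436-34959238, minus strand) are neighbouring genes of 1 exon each in the mm10 annotation. Their coding sequences align over 1929 positions, of which 11 differ or are gaps (99.4% identity), and the longest identical run is 638 nt, many times the length of an RPF. Their 3′ untranslated regions align with only 45.3% identity. The 120 aligned positions of the coding sequences with the most differences, 5 in all, lie near the stop codon. They are shown because reads over the bases in capitals, which have no identical partner in the alignment, are among the few that distinguish the pair. Positions count from the first base of the start codon, 1768 to 1884 in Hspa1a and 1768 to 1887 in Hspa1b.
Hspa1a: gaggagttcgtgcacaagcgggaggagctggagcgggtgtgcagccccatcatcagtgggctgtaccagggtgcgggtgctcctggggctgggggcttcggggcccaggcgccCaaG
Hspa1b: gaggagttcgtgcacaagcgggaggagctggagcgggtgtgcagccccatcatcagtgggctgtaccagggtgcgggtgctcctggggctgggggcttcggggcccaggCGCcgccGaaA

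Of all 30 nt windows in the coding sequence counted for RPF, 92.8% in Hspa1a and 89.2% in Hspa1b were also present in another annotated gene, chiefly each other. Hspa8 (chr9:40800984-40810087, 9 exons), Hsp90aa1 (chr12:110690605-110702728, 11 exons) and Hspb1 (chr5:135887919-135889563, 3 exons) have processed pseudogenes, and 94.9%, 91.7% and 94.1% of their windows were shared, mostly with Gm15459, Gm12346 and Hsp25-ps1, respectively. In Hsp90ab1 (chr17:45567775-45573271) 21.6% were shared. No window of Hsph1 (chr5:149614287-149636376), Hspa4 (chr11:53259814-53300457), Dnajb1 (chr8:83608193-83612653) or Dnajb5 (chr4:42949814-42959425) was found in another gene. For 60 nt windows over the whole transcript, the size class closer to the RNA-seq reads, the shared part was smaller, 64.5% in Hspa1a, 59.6% in Hspa1b, 72.6% in Hspa8, 56.2% in Hsp90aa1, 58.8% in Hspb1 and 2.56% in Hsp90ab1. Because the authors kept uniquely mapped reads, reads from shared windows can be missing from these rows. How mapping treated pseudogene copies is not given in the sources used here, and Hspa8 and Hsp90aa1, with most of their 30 nt windows shared, still had high RPF levels, so how many reads were lost is not known and the levels and ratios of these 5 genes are uncertain. The part this plays in the levels was not tested, and the windows are the same for basal and DHPG libraries.

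**Figure D1:**
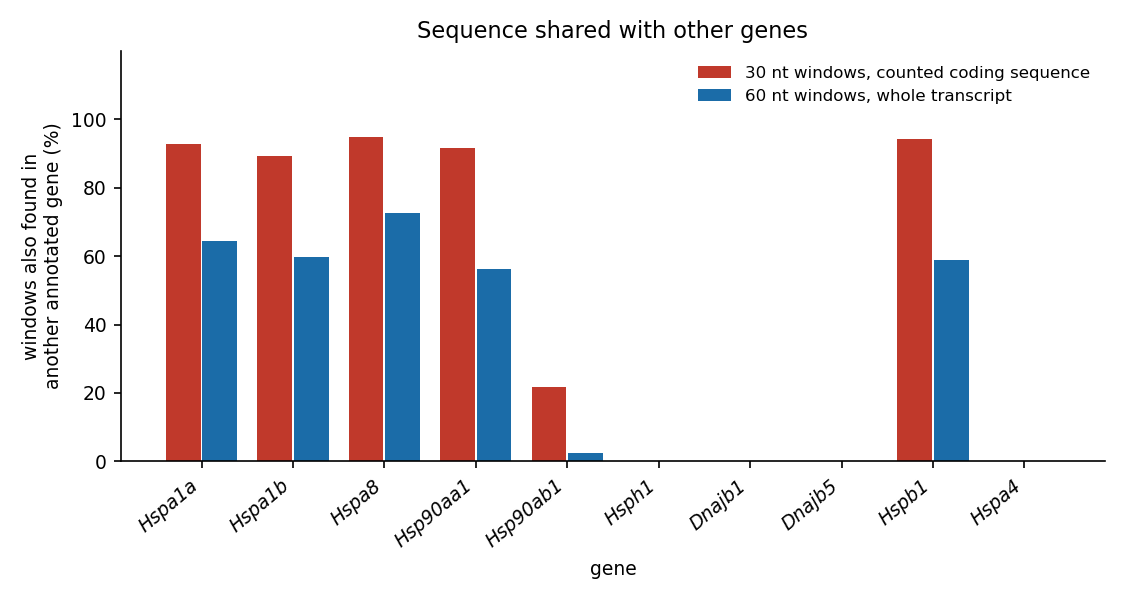
Share of sequence windows of each gene that is also present in another annotated gene (y axis, percent), for 30 nt windows of the coding sequence counted for RPF (red) and 60 nt windows of the whole transcript (blue). Hspa1a, Hspa1b, Hspa8, Hsp90aa1 and Hspb1 lie between 89.2% and 94.9% for the 30 nt windows, Hsp90ab1 lies at 21.6%, and Hsph1, Dnajb1, Dnajb5 and Hspa4 lie at 0.

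Promoter sequences from RefSeq (GRCm38.p6, 250 bases before to 50 after the transcript start) were given for 7 of the 10 members, the others being Hspa8, Hsp90aa1 and Hsp90ab1. The 150 bases before the start of Hspa1a, Hspa1b and Hspb1 are printed because the RPF values of these genes stood high together in replicate 4. Whether the promoter sequence has a part in those values was not tested. Capitals mark 2 adjoining heat shock units, GAANNTTC or TTCNNGAA, each of which reads the same way on the other strand. The sequences come from chr17:34972157-34972306 (minus strand), chr17:34959239-34959388 (minus strand) and chr5:135887769-135887918 (plus strand).
Hspa1a: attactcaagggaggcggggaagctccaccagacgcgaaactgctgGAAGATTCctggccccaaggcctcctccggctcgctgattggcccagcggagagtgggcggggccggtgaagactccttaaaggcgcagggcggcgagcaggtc
Hspa1b: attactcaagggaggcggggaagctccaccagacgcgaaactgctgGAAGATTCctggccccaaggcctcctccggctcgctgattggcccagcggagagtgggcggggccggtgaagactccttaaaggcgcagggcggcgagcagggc
Hspb1: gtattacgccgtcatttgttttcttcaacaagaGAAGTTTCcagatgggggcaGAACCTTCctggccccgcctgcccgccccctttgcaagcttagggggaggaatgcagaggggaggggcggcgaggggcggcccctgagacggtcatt

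The Hspa1a and Hspa1b stretches differed at 1 of 150 positions, and each held 1 match that began 104 bases before the start. Hspb1 held matches that began 117 and 97 bases before its start. A match of 2 units is common, present in 15.1% of all 32851 promoters and, counted by gene, in 17.0% of 27025 genes. Among the 7 members it was found in Hspa1a, Hspa1b, Hspb1 and Hsph1, and not in Dnajb1, Dnajb5 or Hspa4. The stricter match of 3 units, GAANNTTCNNGAA or TTCNNGAANNTTC, was present in 0.603% of promoters and 0.662% of genes. Among the members it was present in Hsph1, where it lies just after both annotated starts (16 and 37 bases) and overlaps 2-unit matches. It is shown in capitals with its surroundings.
Hsph1: aaatgctgcagaTTCTGGAAAGTTCt

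Libraries held 4870813 to 7793244 RNA counts and 5692064 to 22092434 RPF counts. Values are CPM, counts scaled to a common depth, with TMM factors unless stated. The fold changes come from a quasi-likelihood fit in edgeR that treats the replicate number as a block, over 12935 genes in RNA and 13208 in RPF. For the labelled tissue, 8 hippocampal neuron markers summed to 4004 to 6110 CPM in RNA, and glial markers were present at like levels, with 8 astrocyte markers at 5076 to 5672 CPM and 8 oligodendrocyte markers at 2796 to 6689 CPM. Sums of microglial (445 to 702 CPM) and endothelial and mural markers (178 to 234 CPM) were lower. As in any bulk sample, fewer cells of a type and less RNA per cell cannot be told apart.

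Hspa1a and Hspa1b, the stress-inducible Hsp70 genes, were weakly expressed and were the members with the largest difference between DHPG and basal slices. Hspa1b RNA was at 8.33, 9.07, 7.41 and 33.0 CPM in basal replicates 1 to 4 and at 7.10, 4.74, 4.95, 17.8 and 7.06 CPM in DHPG replicates 1 to 5. It was lower after DHPG in 4 of 4 pairs, yet the groups overlapped, because replicate 4 was high under both treatments. The log2 fold change was -0.70 (SE 0.15), the 15th lowest of 12935 genes. Being lower in every pair was the case for 6.97% of all genes in RNA.

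Hspa1b RPF was at 5.43, 4.63, 4.31, 26.6 and 5.89 CPM in basal replicates 1 to 5 and at 4.45, 4.56, 3.42, 15.6 and 4.86 CPM after DHPG. It was lower in 5 of 5 pairs, again with overlapping groups, and 4.72% of all genes were lower in every RPF pair. The log2 fold change was -0.44 (SE 0.11), the 51st lowest of 13208. Pair 4 had the largest difference, from 26.6 to 15.6 CPM, and without replicate 4 the log2 fold change was -0.22 (SE 0.14) in RPF and -0.54 (SE 0.21) in RNA. Hspa1b therefore kept its direction, while the RPF difference was smaller without that replicate.

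Hspa1a RNA was at 11.1, 10.9, 9.57 and 38.8 CPM in basal replicates 1 to 4 and at 13.8, 9.89, 10.6, 18.4 and 8.58 CPM in DHPG replicates 1 to 5. It was lower in 2 of 4 pairs, with a log2 fold change of -0.33 (SE 0.17). This value rested on replicate 4: without it the log2 fold change was 0.13 (SE 0.17). Hspa1a RPF was at 4.66, 5.36, 5.67, 24.98 and 6.29 CPM in basal replicates 1 to 5 and at 5.70, 4.36, 4.08, 14.1 and 6.37 CPM after DHPG. It was lower in 3 of 5 pairs, with a log2 fold change of -0.42 (SE 0.11) that was -0.20 (SE 0.13) without replicate 4.

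**Figure D2:**
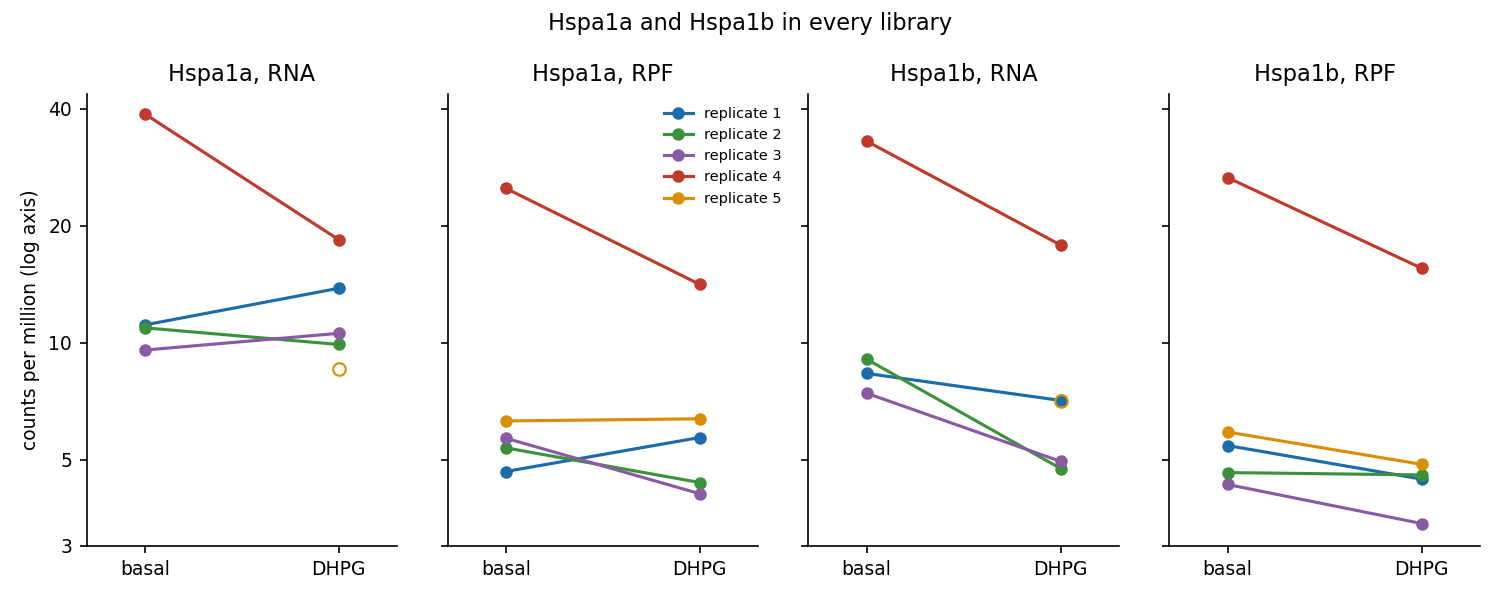
CPM of Hspa1a and Hspa1b in every library (log axis), with a line joining the basal and DHPG libraries of 1 replicate number. Replicate 4 (red) lies above the other replicates in all 4 panels, and the open circle is the DHPG RNA library of replicate 5, which has no basal partner.

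RPF reads of the pair can rarely be told apart, whereas 1033 of 2908 windows of 60 nt in Hspa1a and 1108 of 2744 in Hspa1b were found in no other gene. The sum does not depend on how reads were split between both rows, although reads dropped as not unique are missing from it too. Summed RNA was at 19.4, 19.99, 17.0 and 71.9 CPM in the basal replicates and at 20.9, 14.6, 15.5, 36.3 and 15.6 CPM after DHPG. It was lower in 3 of 4 pairs, with a log2 fold change of -0.46 (SE 0.13). Summed RPF was at 10.1, 9.99, 9.99, 51.6 and 12.2 CPM in the basal replicates and at 10.2, 8.93, 7.504, 29.7 and 11.2 CPM after DHPG, lower in 4 of 5 pairs, with a log2 fold change of -0.42 (SE 0.09). Outside replicate 4 the basal sums lay between 17.0 and 19.99 CPM in RNA and between 9.99 and 12.2 CPM in RPF, and the DHPG sums overlapped with them. The log2 differences of the summed pairs were 0.10, -0.45, -0.13 and -0.99 in RNA replicates 1 to 4 and 0.01, -0.16, -0.41, -0.80 and -0.12 in RPF replicates 1 to 5. Pair 4 was thus the largest in both assays, and in a fit without replicate 4, chosen after seeing the data, the log2 fold change of the sum was -0.13 (SE 0.14) in RNA and -0.21 (SE 0.10) in RPF.

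The split of reads between both rows also varied. In RNA, Hspa1a held 57.1%, 54.6%, 56.4% and 54.0% of the pair's counts in basal replicates 1 to 4, and 66.0%, 67.6%, 68.1%, 50.8% and 54.8% in DHPG replicates 1 to 5. The share was thus higher after DHPG in pairs 1 to 3 and not in pair 4. In RPF it lay between 46.2% and 56.8% in the basal libraries and between 47.6% and 56.7% after DHPG. Few reads stand behind these shares: the smallest RNA count of Hspa1b was 23 (exact 95% Poisson interval 14.6 to 34.5, counting error only), in DHPG replicate 2.

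The difference between replicates was larger than that between treatments. For each gene, the mean log2 CPM of a replicate's libraries was set against the median of the other replicates. In replicate 4, Hspa1b deviated by 1.79 in RNA and 2.06 in RPF, the highest of 12935 and of 13208 genes. Hspa1a deviated by 1.36 in RNA (rank 4) and 1.88 in RPF (rank 2). Both high values were thus present in the 4 libraries of replicate 4, basal and DHPG, RNA and RPF. The SD of log2 CPM among basal libraries was 0.93 for Hspa1a and 0.99 for Hspa1b in RNA (all-gene median 0.26) and 0.98 and 1.07 in RPF (median 0.15), above 99.7% to 99.9% of genes.

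Other members did not share this level in replicate 4. Hspb1 came next, with 0.86 in RPF (rank 19) but 0.21 in RNA. Hsp90aa1 deviated by 0.54 in RNA and by -0.16 in RPF, and Hsph1, which held the 3-unit promoter match, by 0.32 and -0.05. The median of the 10 members was 0.33 in RNA and 0.05 in RPF. Of a list of 34 genes, mostly cytosolic co-chaperones, 29 were above 0 in RNA (median 0.21) and 24 in RPF (median 0.07). Of all genes, 6347 of 12935 and 6714 of 13208 were above 0. The list also holds Hspa2, Hspa4l, Hspa12a and Hspa14, which are further Hsp70 or Hsp110 genes. The same list had 23 and 24 genes above 0 in replicate 1, so most of its genes were above 0 in that replicate as well. Among them Bag3, a co-chaperone that links Hsp70 to autophagy and is itself an Hsf1 target, deviated by 0.66 in RNA and 0.65 in RPF and is named after its values were seen. The heat shock factors and their regulator Hsbp1 had medians of 0.17 in RNA and 0.10 in RPF. Other chaperone lists were mixed there. The 14 genes of chaperonin and prefoldin had 11 above 0 in RNA (median 0.19) and 5 in RPF (median -0.05). The 8 heat shock proteins of the endoplasmic reticulum and mitochondria had 5 above 0 in RNA (median 0.15) and 3 in RPF (median -0.31), and of the 4 small heat shock proteins tested apart from Hspb1, 1 was above 0 in RNA (median -0.22) and 3 in RPF (median 0.16).

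Markers of some cell types, though not of all, also differed in replicate 4. All 8 oligodendrocyte markers were below 0 there, with a median of -0.82 in RNA and -0.70 in RPF, and their summed RNA was 2796 CPM in basal and 3225 CPM in DHPG replicate 4, against group medians of 5293 and 5251. All 8 microglial markers were also below 0, with medians of -0.37 and -0.22. Medians were -0.12 in RNA and -0.04 in RPF for the astrocyte markers, and -0.02 and 0.05 for the hippocampal neuron markers. The endothelial and mural markers, cells in which Hspa1a and Hspb1 can be induced, had medians of -0.09 and -0.01. Their summed RNA was 185 CPM in basal replicate 4, the lowest of the basal libraries. The part of cell composition in the Hspa1a and Hspa1b levels of replicate 4 was not tested.

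**Figure D3:**
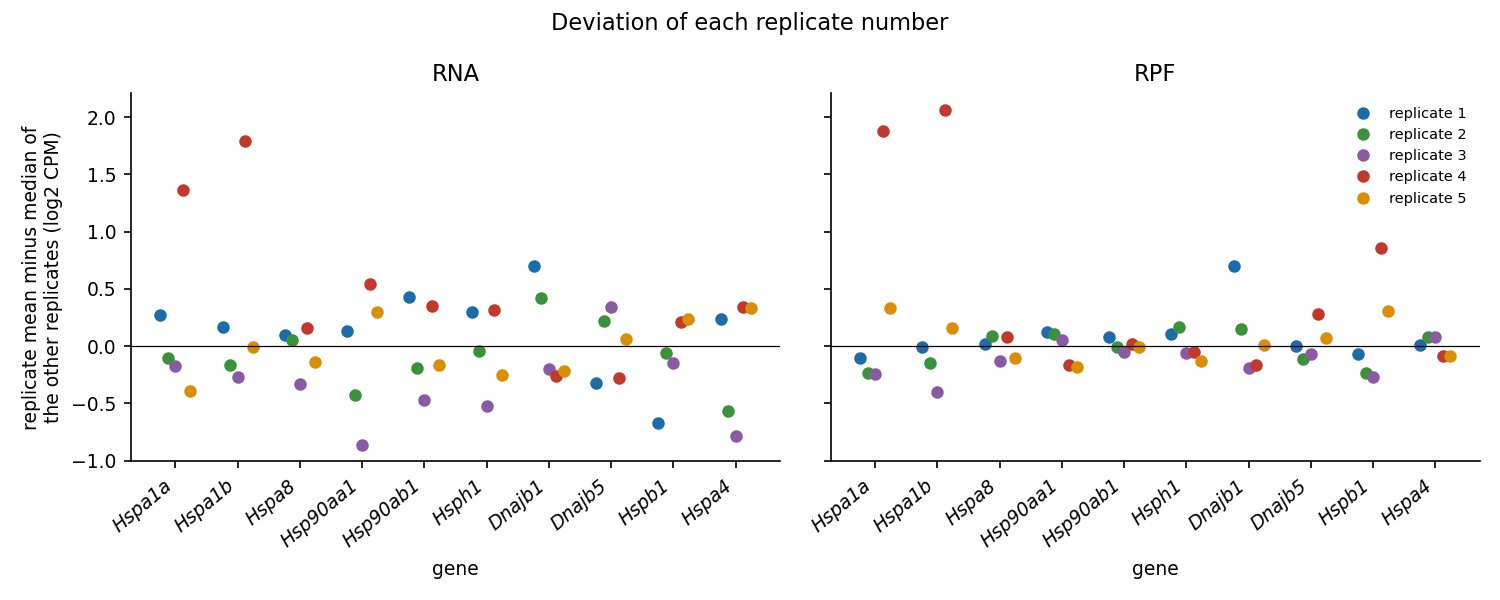
Deviation of each replicate number for each gene (y axis, mean log2 CPM of the replicate's libraries less the median of the other replicates) in RNA (left) and RPF (right). Hspa1a and Hspa1b of replicate 4 (red) lie between 1.36 and 2.06, Dnajb1 of replicate 1 (blue) lies at 0.70 in both assays, and RPF values of Hspa8, Hsp90ab1 and Hspa4 lie close to 0.

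Hspa8, the constitutive Hsp70 of neurons that also uncoats clathrin vesicles at the synapse, was the most abundant member. Its RNA was at 3707, 3597, 2943 and 4146 CPM in the basal replicates and at 3666, 3608, 2842, 3585 and 3299 CPM after DHPG, a log2 fold change of -0.07 (SE 0.06). Its RPF was at 4586, 4631, 4155, 4402 and 4241 CPM in the basal replicates and at 4138, 4386, 3923, 4579 and 4017 CPM after DHPG. Hspa8 RPF was lower in 4 of 5 pairs, with pair 4 higher and the groups overlapping. The log2 fold change was -0.07 (SE 0.03), with a 95% interval from -0.13 to -0.01. Per kilobase, Hspa8 RNA reached 1503 CPM, above 100.0% of genes after rounding, and its RPF 2341 CPM (99.8%).

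Hsp90aa1, the inducible Hsp90, varied between replicates in RNA more than in RPF. Its RNA was at 656, 478, 317 and 709 CPM in the basal replicates and at 508, 413, 343, 763 and 624 CPM after DHPG. Its RPF was at 3375, 3429, 3216, 2807 and 2853 CPM in the basal replicates and at 3223, 3128, 3153, 2996 and 2848 CPM after DHPG. The replicates highest in RNA were not those highest in RPF: replicate 4 had the most RNA and, in the basal group, the least RPF. The log2 fold changes were -0.09 (SE 0.08) in RNA and -0.03 (SE 0.03) in RPF. Hsp90ab1, the constitutive Hsp90, was at 953 to 1532 CPM in basal RNA and 950 to 1594 after DHPG, and at 2862 to 3162 CPM in basal RPF and 2743 to 3032 after DHPG. Its log2 fold changes were 0.03 (SE 0.06) and -0.03 (SE 0.03), and its RPF was among the steadiest of all genes, with an SD of 0.06 in log2 CPM, above only 5.5% of genes.

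The Hsp110 proteins, nucleotide exchange factors of Hsp70, differed little between treatments. Hsph1 was at 208 to 335 CPM in basal RNA and 204 to 338 after DHPG, and at 469 to 567 CPM in basal RPF and 464 to 542 after DHPG. Its log2 fold changes were -0.07 (SE 0.07) and -0.02 (SE 0.03). Hspa4 was at 135 to 248.8 CPM in basal RNA and 136 to 238 after DHPG, with a log2 fold change of -0.13 (SE 0.07) and 3 of 4 pairs lower. In RPF, Hspa4 was at 369 to 409 CPM in the basal group and 365 to 395 after DHPG, with a log2 fold change of -0.04 (SE 0.03). The RPF groups of both genes overlapped.

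Dnajb1, the J-domain partner of inducible Hsp70, was high in replicate 1 rather than replicate 4. Its RPF was at 187, 131, 113, 107 and 122 CPM in basal replicates 1 to 5 and at 184, 123, 103, 113 and 116 CPM after DHPG, and its RNA at 195, 153, 138 and 119 CPM in the basal replicates and 197, 171, 106, 114 and 120 after DHPG. In replicate 1 it deviated by 0.70 in both assays (rank 114 in RNA and 47 in RPF), and in replicate 4 by -0.26 and -0.16. The log2 fold changes were -0.06 (SE 0.08) in RNA and -0.06 (SE 0.04) in RPF. Dnajb5, a related J-domain protein, was at 63.3 to 97.7 CPM in basal RNA and 65.8 to 96.7 after DHPG, with log2 fold changes of 0.04 (SE 0.08) in RNA and 0.01 (SE 0.04) in RPF.

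Hspb1, the small heat shock protein known from glia and vessels, was at 5.07, 10.9, 8.34 and 9.60 CPM in basal RNA and at 7.10, 7.63, 9.21, 11.2 and 10.6 CPM after DHPG. Its RPF was at 13.4, 13.1, 13.2, 23.2 and 14.8 CPM in the basal replicates and at 13.5, 11.9, 11.2, 24.0 and 17.4 CPM after DHPG. The RPF values of replicate 4 stood above the others under both treatments, and the log2 fold changes were 0.10 (SE 0.16) in RNA and -0.03 (SE 0.08) in RPF. Hspb1 was thus high with Hspa1a and Hspa1b in the RPF of replicate 4, while its difference between treatments was near 0.

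**Figure D4:**
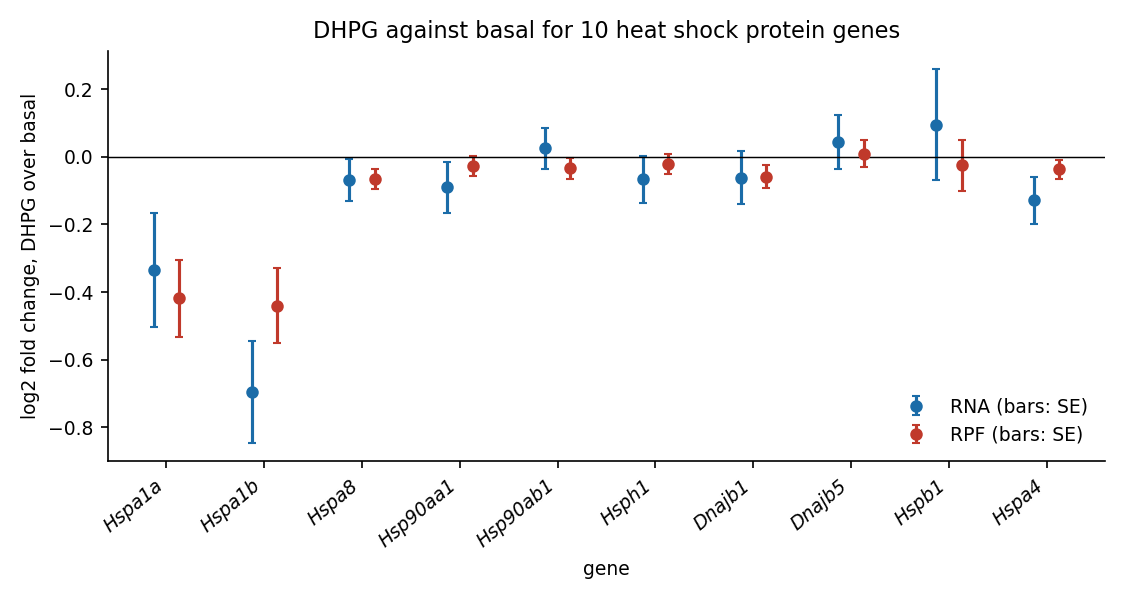
Log2 fold change of DHPG over basal for the 10 genes in RNA (blue) and RPF (red), with bars of 1 SE from the model with the replicate block. Hspa1a and Hspa1b lie between -0.70 and -0.33, and the RPF values of the other 8 genes lie between -0.07 and 0.01.

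By edgeR, 0 of the 10 members passed the thresholds of the study, an adjusted p of 0.01 in RNA and 0.05 in RPF. Of all genes tested, 0.00773% passed in RNA and 0.22% in RPF (0.0379% lower). At an unadjusted p under 0.05 the counts were 1 of 10 in RNA (background 8.02%, 2.81% lower) and 3 of 10 in RPF (background 10.8%, 4.21% lower), all lower. DESeq2 with the same block called 0 in both. ComBat followed by DESeq2 called 0 in RNA and 1 in RPF, Hspa8. This is the order of steps of the study, which used more replicates. The DESeq2 step had no replicate term there, so its p-values did not allow for the adjustment by ComBat. Since the members were picked with this contrast in view, nothing is read from these counts. Below 0 were 7 of 10 in RNA (47.9% of all genes) and 9 of 10 in RPF (48.6%), with medians of -0.07 and -0.04 beside 0.01 and 0.00 over all genes tested. Basal and DHPG ranges overlapped for all 10 members in both assays, while DHPG lay below basal in every library for 0.302% of genes in RNA and 0.235% in RPF.

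The effect of DHPG on the RPF to RNA ratio was fitted in 1 model over the 19 libraries. No member passed an adjusted p of 0.05 there, 0 of 10 had an unadjusted p under 0.05 (background 6.77%, 3.63% lower), and of 12691 genes 0.0% passed. The ratio was not fitted with another tool. Differences ranged from -0.12 (SE 0.18) for Hspb1 to 0.28 (SE 0.19) for Hspa1b, with a median of 0.00. For Hspa8 the 95% interval was -0.12 to 0.12, and for Hsp90ab1 it was -0.17 to 0.05.

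The basal RPF to RNA ratio, with RPF per kilobase of counted coding sequence and RNA per kilobase of transcript, set the members apart from each other far more than DHPG did. It is given on a log2 scale for basal replicates 1 to 4 and beside the median of 12230 genes, 0.85. Hsp90aa1 had the highest value of the members, at 2.98, 3.46, 3.96 and 2.60 (mean 3.25 ± 0.59, SD, n = 4), above 92.6% of genes. Its per-kilobase level was 165 ± 54.4 CPM in RNA (SD, n = 4) and 1464 ± 136 CPM in RPF (SD, n = 5, with replicate 5). Hsp90ab1 had about the same RPF level of 1404 ± 56.1 CPM per kilobase (SD, n = 5). It had 506 ± 106 CPM per kilobase in RNA and a ratio of 1.5 ± 0.29 (SD, n = 4 each).

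Next to Hsp90aa1 came Hspa4 at 1.93 ± 0.48 and Dnajb5 at 1.88 ± 0.43, followed by Hspb1 at 1.52 ± 0.52, Hsp90ab1, Hsph1 at 1.47 ± 0.31 and Dnajb1 at 1.45 ± 0.10 (SD, n = 4 each). With this scaling by length, these 6 overlapped one another in their replicate values. Hsp90aa1 lay above all of them and Hspa8 below all of them in every replicate value. Hspa8 lay lower, at 0.65, 0.71, 0.85 and 0.43 (mean 0.66 ± 0.17), near the middle of all genes (45.1%) with this scaling. Hspa1b at -0.09 ± 0.28 and Hspa1a at -0.25 ± 0.27 were lowest, above 24.6% and 21.1% of genes, and did not differ from each other beyond their spread. Replicate 4 gave the highest ratio of both, 0.27 for Hspa1b and 0.03 for Hspa1a, and the lowest of Hspa8, Hsp90aa1 and Hsp90ab1. The DHPG libraries gave much the same order, with 3.20 for Hsp90aa1, 0.66 for Hspa8, 0.16 for Hspa1b and -0.26 for Hspa1a.

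Shared sequence and length were set beside this order, and the part of shared sequence in it was not tested. With length scaling, the 5 genes with many shared windows were Hsp90aa1, which had the highest ratio, Hspa8, Hspa1b and Hspa1a, which had the lowest 3, and Hspb1, which lay between them. Without scaling by length the median of all genes was -0.18, and Hsp90aa1 at 2.63 (99.2%) and Hspa1a at -0.92 (23.8%) remained at the ends. Dnajb1, whose transcript is much longer than its coding sequence, went to -0.18 (49.7%). Hspa8 at 0.31 (68.8%) then lay above Dnajb1 and Dnajb5 (0.29, 67.8%), so its place below these genes depended on the scaling. Hsp90ab1 was at 1.25 (91.4%). In summed level, the 10 members took 0.617% of CPM in basal RNA and 1.17% in basal RPF.

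**Figure D5:**
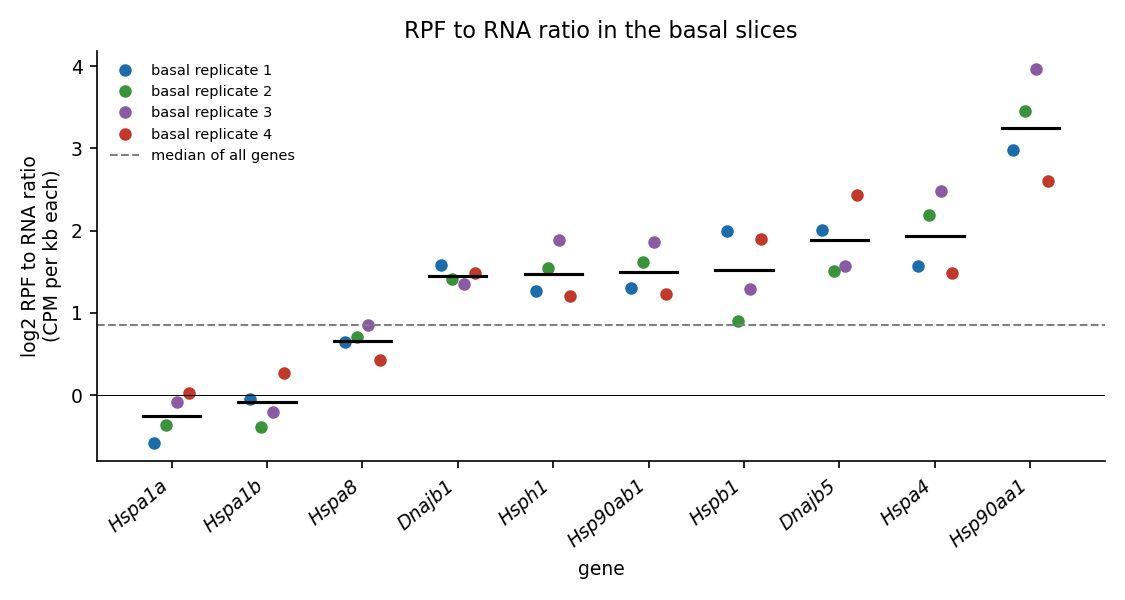
Log2 ratio of RPF to RNA, each in CPM per kilobase, for the 10 genes in basal replicates 1 to 4 (points) with their mean (bar) and the median of 12230 genes at 0.85 (dashed line). Hsp90aa1 lies highest with a mean of 3.25, the means of 6 genes lie between 1.45 and 1.93, and Hspa8, Hspa1b and Hspa1a lie lowest with means of 0.66, -0.09 and -0.25.

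Other genes of the chaperone network were described by list. Of the list of 34 genes that are mostly cytosolic co-chaperones, 25 were below 0 in RNA (median -0.03) and 26 in RPF (median -0.04). By edgeR 0 passed in either assay, against 3 and 7 with an unadjusted p under 0.05, all lower. Over all genes 47.9% and 48.6% were below 0, and 2.81% and 4.21% were lower at that p. The most abundant were Dnajc6, the J-domain protein auxilin, at 480 ± 29.5 (SD, n = 4) and 494 ± 44.0 CPM (SD, n = 5) in basal and DHPG RNA, and Bag6 at 336 ± 82.9 and 348 ± 44.9 CPM. In RPF their log2 fold changes were 0.01 (SE 0.03) and 0.04 (SE 0.03). For the 14 genes of chaperonin and prefoldin, 11 were below 0 in RNA (median -0.08) and 10 in RPF (median -0.01), with 0 past the thresholds, and 5 and 1 of them had an unadjusted p under 0.05. Its most abundant genes, Cct7 and Cct5, had RNA log2 fold changes of -0.21 (SE 0.07, adjusted p = 0.538) and -0.10 (SE 0.07, adjusted p = 0.719).

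Of the heat shock factors and Hsbp1, 4 of 5 were tested and 0 passed, with 0 in RNA and 1 in RPF at an unadjusted p under 0.05. Hsf1 was at 30.2 ± 5.84 CPM (SD, n = 4) in basal RNA and 28.4 ± 3.67 CPM (SD, n = 5) after DHPG. The RPF of Hsbp1, a small protein that binds Hsf1, was at 197 ± 16.6 and 213 ± 22.9 CPM (SD, n = 5 each), a log2 fold change of 0.11 (SE 0.03, adjusted p = 0.141). Of 7 small heat shock proteins 4 were tested, and 0 passed; Cryab RNA, the lens crystallin that oligodendrocytes also make, had a log2 fold change of 0.28 (SE 0.08, adjusted p = 0.536) and Hspb8 one of -0.01 (SE 0.14). The 8 heat shock proteins of the endoplasmic reticulum and mitochondria had medians of -0.07 in RNA and 0.02 in RPF, with 0 past the thresholds, and Hspa5 (BiP) and Hyou1 had RPF log2 fold changes of 0.05 and 0.03 (SE 0.03 each). Zfand2a and Cacybp, from a list of other Hsf1 targets and named after their values were seen, had RPF log2 fold changes of -0.18 (SE 0.07, adjusted p = 0.345) and -0.07 (SE 0.04, adjusted p = 0.501).

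Over all 13 other lists, DESeq2 with the block called 0 genes in RNA and 1 in RPF, and ComBat followed by DESeq2 called 7 and 21. The 1 gene called by edgeR was the myelin gene Mag, whose RPF was at 689 ± 227 and 761 ± 235 CPM (SD, n = 5 each), a log2 fold change of 0.16 (SE 0.04, adjusted p = 0.0337). Of 20 immediate early genes, which neurons induce upon activity, 19 were above 0 in RNA (median 0.19) and in RPF (median 0.06), with Fos and Jund at 0.22 (SE 0.08) and 0.18 (SE 0.07) in RNA, and 0 passed against 12 and 8 with an unadjusted p under 0.05, all higher. Of all genes 6744 of 12935 were above 0 in RNA and 6794 of 13208 in RPF, and 673 and 865 were higher at that p. The summed RNA of this list was 2245 CPM in basal replicate 4, the lowest library, against a basal median of 2886 CPM, and the part of that library in the RNA values was not tested. Set against the other replicates, replicate 4 had 4 of these 20 genes above 0 in RNA (median -0.19) and 17 in RPF (median 0.22).

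Endothelial and mural markers were the cell type list that lay below 0 beside Hspa1a and Hspa1b. In RPF 13 of 14 were below 0 (median -0.13), and in RNA 9 of 14 (median -0.08), with 0 past the thresholds. Below 0 were 48.6% of all genes in RPF and 47.9% in RNA. At an unadjusted p under 0.05, 3 were lower in RPF and 1 in RNA, against 4.21% and 2.81% of all genes. Their summed RPF was 273 to 333 CPM in basal and 267 to 340 CPM in DHPG libraries, so the sums overlapped. The 2 most abundant, Vtn and Pdgfrb, had RPF log2 fold changes of -0.01 and 0.05 (SE 0.05 and 0.06). No defining marker of this list was at 0. Their part in the Hspa1a and Hspa1b values was not tested. Medians of the astrocyte, oligodendrocyte, microglial and neuronal lists were 0.05, 0.11, 0.10 and 0.01 in RPF and 0.04, 0.17, 0.00 and 0.07 in RNA. Of 5 choroid plexus markers, 1 was tested in RNA and 2 in RPF. Kl was at 28.7 CPM in basal RNA and 13.95 CPM in basal RPF, while the others were near the limit of detection.

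Genes whose profile over the libraries was most like that of Hspa1b were sought by the root mean square difference of centred log2 CPM. Hspa1a was the nearest of all genes in both assays, at 0.361 over 9 RNA libraries and 0.216 over 10 RPF libraries, against medians of 0.847 and 0.886 over all genes, and much of its sequence is shared with Hspa1b. In RNA the next were Cep135 (0.378), Zfp599 (0.449), Zfp85 (0.454) and Mcm8 (0.467). In RPF they were 2810408M09Rik (0.5), Kcnj14 (0.539), Zap70 (0.546) and Alox12b (0.564). The RNA and RPF neighbours had no gene in common apart from Hspa1a, and no other heat shock protein was among them.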

How the data were processed

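RNA-seq and RPF libraries of wild-type hippocampal slices were analysed. Per the labels and the study's methods, the authors trimmed reads with cutadapt, removed rRNA and tRNA reads with Bowtie2, mapped to mm10 with TopHat2, kept uniquely mapped reads without UMI duplicates, and deposited RSEM expected counts per gene. RPFs were counted on coding sequence without 30 nt at each end, RNA on whole transcripts. The expected counts were used as whole numbers. The 12 columns of replicates 6 to 8 were not used.

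The members and gene lists were chosen with earlier results of these data known. Samples were grouped by the labels. DHPG and basal libraries were compared with edgeR 4.0.16 (R 4.3.3): TMM, filterByExpr, quasi-likelihood F test, Benjamini-Hochberg adjustment over all genes, replicate number as a block. Same-numbered libraries deviated together in every pair (correlation 0.308 to 0.741 in RNA, 0.259 to 0.523 in RPF), so the numbers pair the samples. DHPG RNA replicate 5 has no partner and adds nothing to the blocked RNA fold changes. DESeq2 1.42.0, ComBat (sva 3.50.0), other scaling, no filter, no block, summed Hspa1a and Hspa1b and leaving out each replicate were the alternatives, with the summed pair without each replicate added after seeing the data. Log2 CPM used a prior count of 2, or 0.5 as an alternative. Named were all members, of every other list the genes past a threshold and the 2 most abundant in basal RNA, and the 5 genes most like Hspa1b in each assay. The list of other Hsf1 targets is reported for 2 of its genes only, and the rest is not reported here. The scripts were tested on simulated data.

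Lengths and sequences came from GENCODE M21 (95.5% of genes had a length) and promoters from RefSeq GRCm38.p6. Coding sequences were aligned with Biopython 1.88. A window counted as shared when it matched another gene's transcript exactly on either strand. The smallest count of a member in a library was 23, so low members are the least precise.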

Additional observations from a re-analysis of the deposited data

Results flagged for a closer look

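In 40 groups of libraries (10 genes, 2 assays, 2 treatments), each of 4 or 5 libraries, 9 held 1 library far from the rest of its group by Dixon's test, where chance gives about 2. Of these, 8 were libraries of replicate 4, and values of the same replicate or of Hspa1a and Hspa1b, which share reads, are not independent of each other. The genes were also chosen with their levels in these libraries known, so nothing is read from the count of 9 beside 2.

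For Hspa1a, replicate 4 had 38.8 CPM in basal RNA (others 9.57 to 11.1), 24.98 in basal RPF (4.66 to 6.29) and 14.1 in DHPG RPF (4.08 to 6.37). For Hspa1b it had 33.0 CPM in basal RNA (7.41 to 9.07), 17.8 in DHPG RNA (4.74 to 7.10), 26.6 in basal RPF (4.31 to 5.89) and 15.6 in DHPG RPF (3.42 to 4.86). Hspb1 had 23.2 CPM in basal RPF of replicate 4 (13.1 to 14.8). Dnajb1 had 184 CPM in DHPG RPF of replicate 1 (103 to 123).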

How the results depend on the processing

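The fold change of Hspa1b stayed below 0 in both assays under every alternative run. Without the filter on low counts, 1 member (Hspa1b) passed in RNA and 2 (Hspa1a and Hspa1b) in RPF, with 7, 96 and 4 genes in RNA, RPF and the ratio, and 1 and 6 genes of the other lists. ComBat followed by DESeq2, whose p-values did not allow for the ComBat step, gave 1 member in RPF (Hspa8). It gave 100 and 427 genes, and 7 and 21 of the other lists. With Hspa1a and Hspa1b as 1 row, that row passed in RPF, so 1 member was called. Without the replicate block 0 genes passed in RNA and 0 in RPF, and 0 of the other lists in RPF. DESeq2 with the replicate block called 0 genes in RNA. Leaving out each replicate in turn gave 0 members in RNA, 0 to 1 in RPF (Hspa1a, without replicate 5) and 0 in the ratio. It gave 0 to 22 genes in RNA (22 without replicate 2), 3 to 71 in RPF (3 without replicate 2, 71 without replicate 3) and 0 to 8 in the ratio, and 0 to 2 and 0 to 6 genes of the other lists. The members' median basal ratio was 1.49, 1.44 to 1.5 without a replicate, and 0.58 without length scaling, which lowers all genes. The cause of the other differences was not tested. Hspa1a RNA moved from -0.33 to 0.13 without replicate 4. Values near 0 also changed sign when 1 replicate was left out: Dnajb1 RNA (-0.13 to 0.04), Dnajb5 RNA (-0.05 to 0.10) and RPF (-0.04 to 0.05), and Hspb1 RNA (-0.02 to 0.27) and RPF (-0.10 to 0.05). Depth limits Hspa1a, Hspa1b and Hspb1 most.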
